A study of Homo sapiens with 8 samples.

Results

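The genes described here are the protein-coding genes of human chromosome 19 whose symbol is ZNF followed by a number. They were picked by position, biotype and symbol in GENCODE v29, a rule set with earlier results of these data known. The annotation holds 249 such genes, 227 of which were in the expression table of 31721 genes and are the members described here. Every gene in that table had signal in some library, so the shares and levels below describe detected genes. RNA with a polyA tail was sequenced from A2780, an established human line from an ovarian carcinoma, per the labels. The cells had been treated for 24 hours in 4 ways. The controls received DMSO, the solvent. The other groups received olaparib, an inhibitor of the poly(ADP-ribose) polymerases that act in DNA break repair, palbociclib, an inhibitor of the kinases CDK4 and CDK6 that drive cells out of G1, or both drugs together (the combination). The labels name no transgene or deletion in these cells, and doses are not given in the sources used here. Each group had 2 libraries, called biological repeats in the labels. Separate cultures are not stated, so p-values reflect only how these samples spread, which may be technical.

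ZNF genes of this kind encode C2H2 zinc finger proteins. Each finger is a short fold held by a zinc ion, and a row of fingers reads a stretch of DNA. Many of the chromosome 19 genes arose by tandem duplication and lie in clusters, and many also encode a KRAB domain. The KRAB domain binds the corepressor TRIM28 (KAP1), which brings the histone methyltransferase SETDB1, HP1 proteins and deacetylases, and the best known targets of this repression are transposable elements.

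A feature of most members is the linker that joins one finger to the next. It was searched for in the coding sequence, on the sense strand only, as the letters AC, GG, GA, AA and CC with 1 free base after each pair. At least 1 linker was found in 194 of the 227 members (85.5%), against 1.93% of 15993 other protein-coding genes. Those other genes include the ZNF genes of other chromosomes, which were not counted apart. The number per member had a median of 6 and reached 25 in ZNF850. The pair of stretches below shows 1 finger each, from linker to linker, in ZNF121 and ZNF160. On the log2(FPKM + 1) scale used below, these tested members gave the largest fall and the largest rise with the combination. Capitals mark the linkers, and the sequences are the GENCODE v29 coding sequences on GRCh38, at coding positions 499 to 597 and 922 to 1020.
ZNF121: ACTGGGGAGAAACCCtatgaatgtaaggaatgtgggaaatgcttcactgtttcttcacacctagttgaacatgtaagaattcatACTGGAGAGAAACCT
ZNF160: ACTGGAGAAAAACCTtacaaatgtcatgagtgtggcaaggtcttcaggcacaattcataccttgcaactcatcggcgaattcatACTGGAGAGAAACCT

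Promoters were read as the 250 bases before the RefSeq start, and 200 of the 227 members had an entry. Motifs were searched on both strands. Members were limited to protein-coding genes of the expression table, but the sets they are compared with held every promoter entry. Those sets were not filtered by biotype or detection, so the shares are not of like genes. The core bound by the activator ZNF143, spelled as ACTACA, then 2 free bases, then TCC, was found in 15% of the members' promoters, against 9.0% of those of ZNF genes on other chromosomes, 2.9% of other chromosome 19 genes and 1.98% of all 27305 promoters. The letters CCGGAAGT, bound by ETS factors, were found in 15.5% of members, 10.2%, 3.9% and 3.64% respectively. The letters TTTGGCGC, read by E2F factors, were found in 3.0% of members and 0.55% of all promoters, and another E2F spelling, TTTCCCGC, in 1.5% and 1.42%. Members' promoters had a median GC content of 60.2% and all promoters 58.0%. The ratio of observed to expected CpG had a median of 0.75 in members and 0.56 in all promoters. A match is a description of letters and not a bound site. Printed below, from RefSeq on GRCh38.p14, are the promoters of 3 members that fell with the combination and hold a ZNF143 match. The promoter of ZNF160, which rose and holds no match to the ZNF143 or ETS letters, is printed with them. These promoters were picked as examples. ZNF121, ZNF324B and ZNF587B also fell with the combination and hold no ZNF143 match. A link of match and direction was not tested, and the counts by match are given below. Capitals mark the ZNF143 match and, in ZNF180, also the ETS match, both of which appear as the reverse complement of the letters given. The intervals are chr19:44500523-44500772 on the minus strand for ZNF180, chr19:36214856-36215105 on the plus strand for ZNF146, chr19:58408399-58408648 on the plus strand for ZNF584 and chr19:53103423-53103672 on the minus strand for ZNF160.
ZNF180: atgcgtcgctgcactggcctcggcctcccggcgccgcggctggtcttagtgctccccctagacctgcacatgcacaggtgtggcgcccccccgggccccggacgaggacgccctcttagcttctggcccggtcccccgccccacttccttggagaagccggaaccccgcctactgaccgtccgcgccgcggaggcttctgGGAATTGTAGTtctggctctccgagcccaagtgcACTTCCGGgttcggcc
ZNF146: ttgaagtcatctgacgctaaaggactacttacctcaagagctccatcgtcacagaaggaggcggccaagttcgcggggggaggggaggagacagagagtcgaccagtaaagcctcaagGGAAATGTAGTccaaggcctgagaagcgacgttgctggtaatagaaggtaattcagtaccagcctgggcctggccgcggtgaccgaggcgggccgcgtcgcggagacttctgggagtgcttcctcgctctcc
ZNF584: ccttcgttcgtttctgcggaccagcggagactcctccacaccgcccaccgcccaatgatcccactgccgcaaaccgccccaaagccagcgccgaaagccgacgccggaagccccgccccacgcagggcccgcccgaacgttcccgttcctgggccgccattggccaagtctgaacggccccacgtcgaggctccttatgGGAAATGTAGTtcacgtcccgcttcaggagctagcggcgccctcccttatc
ZNF160: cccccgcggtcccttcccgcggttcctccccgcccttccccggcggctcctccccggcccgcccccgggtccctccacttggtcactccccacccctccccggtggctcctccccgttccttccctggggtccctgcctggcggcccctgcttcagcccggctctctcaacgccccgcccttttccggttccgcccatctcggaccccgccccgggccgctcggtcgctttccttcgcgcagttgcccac

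Levels are given as FPKM, which is reads divided by exon length and library size as scaled by the authors. Whole reads behind these values could be recovered and summed to between 20566158 and 34057055 per library, and the spread within every group exceeded sampling noise (chi-square per degree of freedom of 2.37 to 4.09). The label calls the cells epithelial. All 6 epithelial markers examined had mean levels under 1 FPKM, with EPCAM at 0.556 and CDH1 at 0.00442. PAX8, a marker of ovarian carcinoma, was at 0.00118 FPKM, and the mesenchymal filament gene VIM was at 291.9. The summed FPKM of the 6 epithelial markers ran from 0.524 to 0.597 in the DMSO libraries, 0.663 to 0.772 with olaparib, 1.30 in both palbociclib libraries and 1.41 to 1.61 with the combination. That of the 3 mesenchymal markers ran from 257.3 to 261.5, 244.9 to 252.3, 334.9 to 359.1 and 347.7 to 348.1 in the same order. Nearly all of that sum was VIM (250.4 FPKM in DMSO and 339.4 with the combination). ZEB1 was at 6.49 FPKM in DMSO and 5.77 with the combination and CDH2 at 2.49 and 2.69, neither past the threshold in that comparison (limma adjusted p = 0.0571 and 0.312). The 3 endothelial markers never summed above 0.0169 FPKM in a library, the 2 erythroid markers never above 0.328, and CD14, the leukocyte marker measured, never above 0.0725. The part of these shifts in the changes below was not tested.

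Most members were expressed weakly. The median member had a mean of 1.2 FPKM over the 8 libraries, and the range ran from 0.000984 to 37.0. Members with a mean of at least 1 FPKM numbered 125 (55.1%) and were tested for change, and the 102 under 1 are described apart. The median of the tested members was 2.51 FPKM, against 4.43 for the 183 tested ZNF genes of other chromosomes, 13.1 for the 663 other tested protein-coding genes of chromosome 19 and 6.95 for all 12443 tested genes. Just above the limit lay ZNF816 (1.008 FPKM), ZNF383 (1.015) and ZNF814 (1.02), and just under it ZNF471 (0.965), ZNF808 (0.963) and ZNF224 (0.956).

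The 10 highest members held 35.1% of the members' summed FPKM. ZNF579 was the highest, at 32.5 and 34.6 FPKM in DMSO, 37.6 and 42.0 under olaparib, 38.5 and 38.6 under palbociclib and 31.8 and 40.4 under the combination. The combination libraries of ZNF579 spanned the DMSO range and no comparison passed the test. Next came ZNF787 (a mean of 27.2 FPKM) and ZNF146 (26.7), followed by ZNF581 (22.9), ZNF580 (18.7), ZNF865 (18.3), ZNF428 (16.4), ZNF444 (10.7), ZNF317 (10.4) and ZNF574 (10.2). ZNF580 and ZNF581 share exon sequence on 1 strand with each other and with CCDC106, and the sources used here do not say whether counting used strand, so their levels are uncertain. Of these 10 genes, 6 held no linker by the letters above, ZNF865 and ZNF787 held 2 each, ZNF146 held 4 and ZNF317 held 5. The 33 members without a linker had a median of 3.84 FPKM and 27 of them were tested. The 55 members with 1 to 4 linkers had a median of 1.25 FPKM with 30 tested, and the 139 with 5 or more had a median of 0.963 FPKM with 68 tested.

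**Figure D1:**
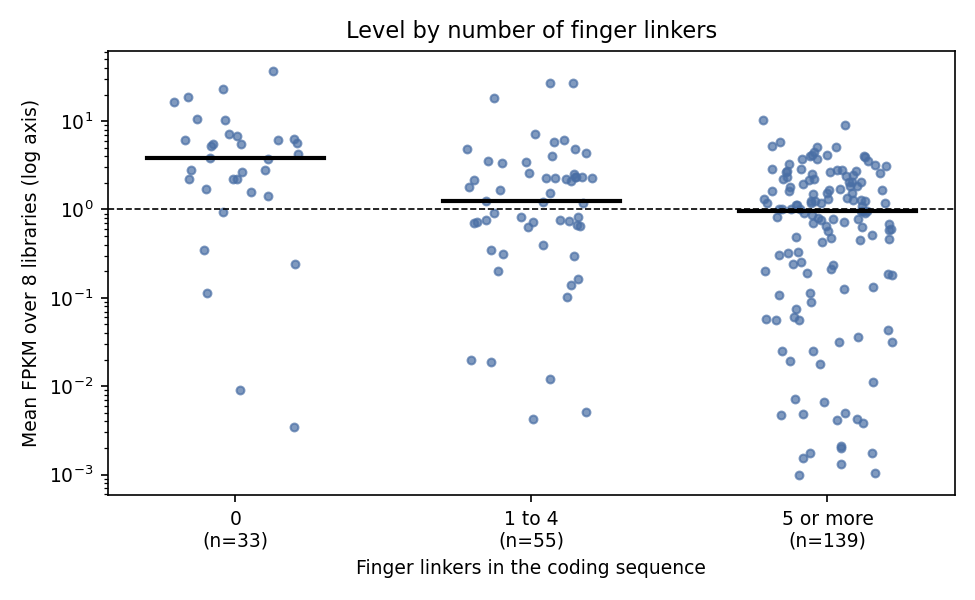
Mean FPKM over the 8 libraries (log axis) of each of the 227 members by the number of finger linkers in its coding sequence, with bars at the medians and a dashed line at the test limit of 1 FPKM. The medians are 3.84, 1.25 and 0.963 FPKM, and members under 0.1 FPKM occur in every class.

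Level also differed by position. Members were joined into a run where neighbouring starts lay less than 1 Mb apart, which gave 15 runs. The last run, between 55.48 and 58.48 Mb, held 59 members, 44 of them tested, with a median of 2.23 FPKM. It contained 6 of the 10 highest members (ZNF579, ZNF865, ZNF580, ZNF581, ZNF787 and ZNF444). The run between 19.67 and 24.13 Mb held 24 members with a median of 0.27 FPKM, of which 7 were tested, and the run between 51.57 and 53.58 Mb held 37 members with a median of 0.312 FPKM, of which 13 were tested. Both low runs still contained members called as changed, such as ZNF724 in the first and ZNF160, ZNF83, ZNF480 and ZNF616 in the other.

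**Figure D2:**
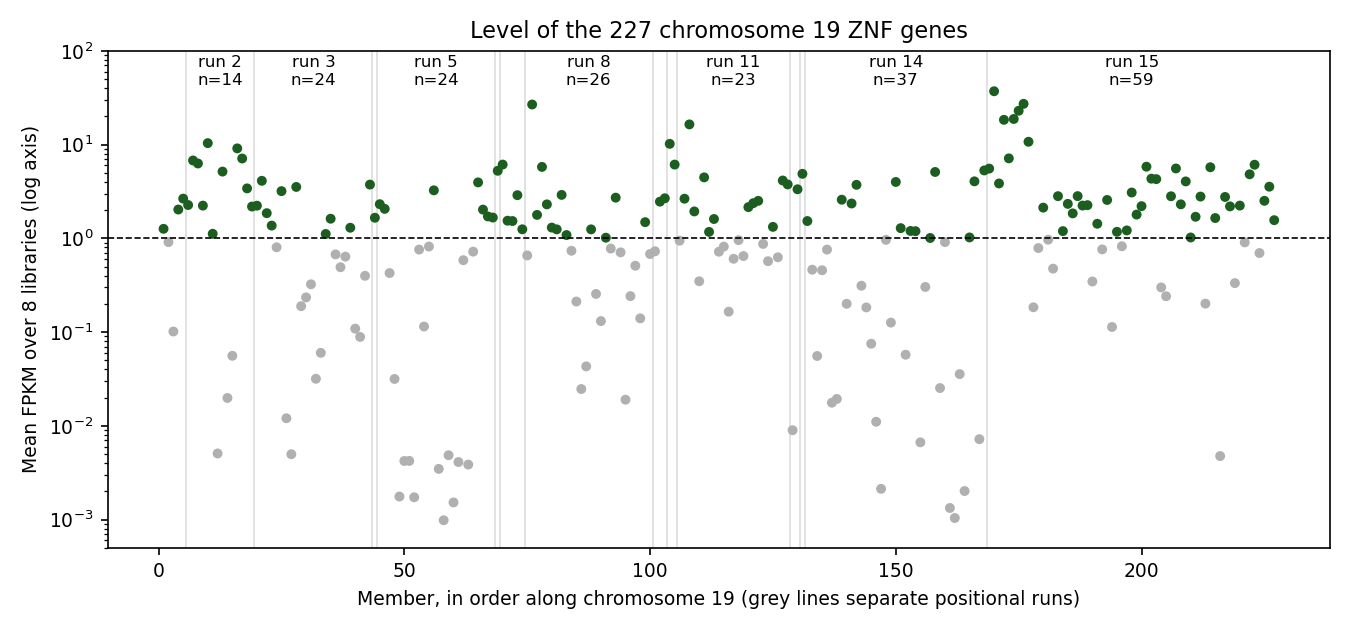
Mean FPKM over the 8 libraries (log axis) of the 227 members in their order along chromosome 19, with grey lines between positional runs, run size above, tested members in green and members under 1 FPKM in grey. Run 15 has 44 of 59 members above the dashed line at 1 FPKM and run 5 has 7 of 24.

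Summed over members, FPKM came to 573.9 and 584.6 in the DMSO libraries, 564.1 and 571.2 under olaparib, 566.2 and 555.4 under palbociclib and 540.7 and 563.1 under the combination. Every treated library lay below both DMSO libraries. As a share of each library's total FPKM the order was turned, with 0.194% and 0.198% in DMSO and 0.201% to 0.207% in the treated libraries, and the deposited library totals were lower after treatment. These sums were not tested. Fewer cells of a type and less RNA per cell cannot be told apart in such bulk samples.

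Changes were tested with limma on log2(FPKM + 1) across all 12443 genes, and differences below are on that scale, on which changes of weakly expressed genes come out too small. A member is called changed at a Benjamini-Hochberg adjusted p under 0.05 over all tested genes. The comparisons with DMSO share the DMSO libraries, so their values are set side by side and are not independent. Rescaling to TPM, in which every library has the same total, raised the median difference of all genes for the combination from −0.06 to 0.06. The balance of higher and lower calls is therefore given on both scales. Quantile normalisation, another rescaling, kept more lower than higher members for palbociclib and the combination, with counts in the section on processing.

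Olaparib moved few members. By limma 0 of the 125 tested members were higher and 5 were lower (4%), while 14.6% of all tested genes were called, 4.13% higher and 10.5% lower. After TPM scaling all 5 of these calls were lost, and 1 other member, ZNF574, was called higher, while 7.55% of all tested genes were called higher and 3.8% lower on that scale. The median difference was −0.03 in the members and −0.03 in all tested genes. The 5 lower members were ZNF121, ZNF146, ZNF587B, ZNF180 and ZNF480. Each of these calls was lost without either DMSO library or without either olaparib library, leaving 0 lower members in all 4 of those fits. At an unadjusted p under 0.05 limma gave 22 members in either direction. The share of all tested genes at that unadjusted level was not counted, so this says nothing particular to the members. Limma with voom weights on the recovered reads called 4 higher and 14 lower, with 8.69% of all tested genes higher and 16.9% lower.

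Palbociclib lowered more members than it raised on the deposited scale, with 12 higher and 23 lower (28%), and the order turned after TPM scaling, with 23 higher and 15 lower. Without palbociclib replicate 2 the higher count was 3, without palbociclib replicate 1 it was 5, and without DMSO replicate 1 or 2 it was 4 or 7. The lower count was 13 without DMSO replicate 2 and 14 without palbociclib replicate 1. Of all tested genes 50.1% were called, 18.7% higher and 31.4% lower, and after TPM scaling 27.6% and 21.6%. The members' share was below that of all genes, and that of the ZNF genes of other chromosomes was 35%. Members also had the lowest median level of these sets (2.51 FPKM), and the part of that level in the count was not tested. The other protein-coding genes of chromosome 19 were called in 52.8% of cases. The median difference was −0.03 in members and −0.05 in all genes, and 2 called members differed by 0.5 or more, a count not made for all genes.

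With the combination 14 members were higher and 30 lower (35.2%) on the deposited scale, against 29 higher and 14 lower on the TPM scale. Without DMSO replicate 1 or 2 the higher count was 8 or 9. Of all tested genes 56.8% were called, 21.5% higher and 35.3% lower, and after TPM scaling 32.7% and 24.2%. The corresponding shares were 42.6% for ZNF genes of other chromosomes and 59% for other protein-coding genes of chromosome 19. The median difference was −0.03 in members and −0.06 in all genes, and 7 called members differed by 0.5 or more. Neither this count nor the counts of calls that held, given next, were made for all tested genes. By limma 8 of the 14 higher and 13 of the 30 lower calls held in all 14 alternative settings, including both other scalings and the loss of any single library. For palbociclib 3 of the 12 higher and 10 of the 23 lower calls held in all of them.

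**Figure D3:**
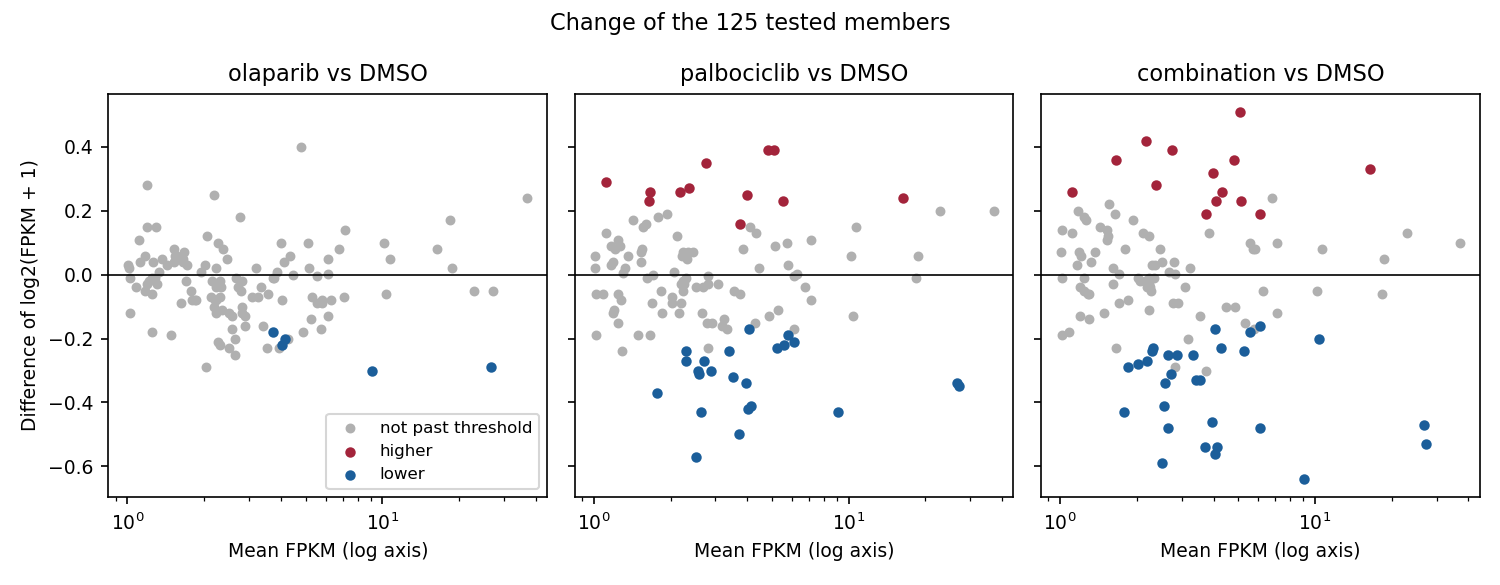
Difference of log2(FPKM + 1) from DMSO against mean FPKM (log axis) for the 125 tested members, with members called higher in red, lower in blue and others in grey, by limma on the deposited scale. Called members number 5 with olaparib, 35 with palbociclib and 44 with the combination, and lower calls outnumber higher ones in these panels, an order of counts that turns after TPM scaling.

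ZNF121, reported to bind the transcription factor MYC, gave the largest fall with the combination on the log2(FPKM + 1) scale. As a ratio of mean FPKM, ZNF324B fell further (3.40 in DMSO to 1.93 with the combination, against 11.63 to 7.12 for ZNF121). ZNF121 (ENSG00000197961) lies at chr19:9560353-9584533 on the minus strand of GRCh38. Its level was 11.9 and 11.3 FPKM in the DMSO libraries, 9.66 and 8.85 under olaparib, 8.47 and 8.28 under palbociclib, and 7.63 and 6.61 under the combination. The 4 groups did not overlap, and the combination libraries were the lowest. By limma the difference from DMSO was −0.30 ± 0.07 (SE, adjusted p = 0.0341) with olaparib, −0.43 ± 0.07 (adjusted p = 0.00213) with palbociclib and −0.64 ± 0.07 (adjusted p = 0.000256) with the combination. The combination also lay −0.34 ± 0.07 below olaparib alone (adjusted p = 0.00737).

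ZNF146 (ENSG00000167635, chr19:36214602-36238774, plus strand), also called OZF and made up of zinc fingers with no KRAB domain, was among the most abundant members. It stood at 32.4 and 32.2 FPKM in DMSO, 27.3 and 25.1 under olaparib, 26.8 and 23.7 under palbociclib, and 22.6 and 23.6 under the combination. Every treated library was below both DMSO libraries, and olaparib and palbociclib overlapped each other. By limma the differences from DMSO were −0.29 (adjusted p = 0.0296), −0.34 ± 0.06 (adjusted p = 0.00393) and −0.47 ± 0.06 (adjusted p = 0.000733) with olaparib, palbociclib and the combination. An exon of ZNF146 overlaps one of ZNF565 on the other strand.

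ZNF180, a KRAB gene (ENSG00000167384, chr19:44474428-44500524, minus strand), was at 5.17 and 5.23 FPKM in DMSO, 4.31 and 4.50 under olaparib, 3.78 and 3.58 under palbociclib, and 3.22 and 3.28 under the combination. The 4 groups did not overlap. By limma it fell by 0.41 with palbociclib (SE 0.05, adjusted p = 0.000514) and by 0.54 with the combination (adjusted p = 9.63e-05), and was at −0.20 with olaparib (adjusted p = 0.0371). ZNF180 is the member printed above with both promoter matches.

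ZNF587B (ENSG00000269343, chr19:57819741-57846238, plus strand) was at 5.25 and 5.03 FPKM in DMSO, 4.29 and 4.27 under olaparib, 3.55 and 3.61 under palbociclib, and 3.17 and 3.15 under the combination. Its groups did not overlap either, and limma gave it the lowest adjusted p of the members with the combination (6.6e-05, difference −0.56 ± 0.04). The palbociclib difference was −0.42 ± 0.04 (limma adjusted p = 0.000329) and that of olaparib −0.22 ± 0.04 (adjusted p = 0.0258). Of its 100-base exon windows 16.9% also occur in other genes and its exons overlap those of ZNF586, so its counts are uncertain.

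ZNF480, a KRAB gene (ENSG00000198464, chr19:52297177-52325922, plus strand), was at 4.62 and 4.90 FPKM in DMSO, 4.08 and 4.06 under olaparib, 3.13 and 3.01 under palbociclib, and 2.99 and 2.96 under the combination. The palbociclib and combination libraries were the lowest and lay close together. By limma the difference was −0.18 with olaparib (adjusted p = 0.0487), −0.50 ± 0.05 with palbociclib (adjusted p = 0.000247) and −0.54 ± 0.05 with the combination (adjusted p = 0.000117).

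ZNF324B (ENSG00000249471, chr19:58451604-58457833, plus strand) was at 3.35 and 3.45 FPKM in DMSO, 2.63 and 2.87 under olaparib, 2.10 and 1.82 under palbociclib, and 1.93 and 1.92 under the combination. Its combination libraries fell inside the palbociclib range. Palbociclib gave this gene the largest fall of any tested member, by limma −0.57 ± 0.07 (adjusted p = 0.000588), with −0.59 ± 0.07 for the combination (adjusted p = 0.000363) and −0.23 for olaparib (adjusted p = 0.0661).

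ZNF787 (chr19:56087366-56121280, minus strand) was at 31.3 and 32.1 FPKM in DMSO, 28.6 and 32.5 under olaparib, 24.1 and 25.3 under palbociclib, and 20.2 and 23.3 under the combination. The olaparib libraries enclosed the DMSO pair, and both palbociclib groups lay below them. By limma it was at −0.05 with olaparib (adjusted p = 0.685), −0.35 ± 0.08 with palbociclib (adjusted p = 0.00979) and −0.53 ± 0.08 with the combination (adjusted p = 0.00126). The palbociclib call was lost without DMSO replicate 2 or palbociclib replicate 1.

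ZNF584 (ENSG00000171574, chr19:58401504-58418327, plus strand) was at 6.90 and 7.22 FPKM in DMSO, 5.92 and 6.83 under olaparib, 6.32 and 5.98 under palbociclib, and 4.85 and 4.71 under the combination. Both combination libraries lay below every other library. The difference from DMSO by limma was −0.48 ± 0.07 with the combination (adjusted p = 0.000716), −0.17 with palbociclib (adjusted p = 0.0626) and −0.13 with olaparib, the last 2 not past the threshold. ZNF576 also fell, by limma −0.43 ± 0.09 with palbociclib and −0.48 ± 0.09 with the combination, but it shares exon sequence with SRRM5 on the same strand. ZNF566 fell by 0.37 and 0.43 in the same comparisons, both with an SE of 0.07.

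Fewer members rose in a way that held in every alternative. ZNF160, a KRAB gene reported to repress TLR4 (ENSG00000170949, chr19:53066606-53103436, minus strand), was at 3.96 and 4.2 FPKM in DMSO, 4.52 and 4.36 under olaparib, 5.78 and 5.50 under palbociclib, and 6.30 and 6.15 under the combination. The 4 groups did not overlap, with the combination the highest. By limma it rose by 0.39 ± 0.05 with palbociclib (adjusted p = 0.000649) and 0.51 ± 0.05 with the combination (adjusted p = 0.000134), and was at 0.10 with olaparib (adjusted p = 0.201).

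ZNF329 (ENSG00000181894, chr19:58126252-58155110, minus strand) was at 2.13 and 2.25 FPKM in DMSO, 2.5 and 2.73 under olaparib, 3.16 and 2.96 under palbociclib, and 3.18 and 3.17 under the combination. By limma it rose by 0.35 ± 0.06 with palbociclib (adjusted p = 0.0029) and 0.39 ± 0.06 with the combination (adjusted p = 0.00135), and the olaparib value was 0.18 (adjusted p = 0.0884). ZNF83 (ENSG00000167766, chr19:52594060-52690496, minus strand) was at 3.47 and 3.39 FPKM in DMSO, 3.73 and 3.76 under olaparib, 4.30 and 4.2 under palbociclib, and 4.62 and 4.45 under the combination. Its groups did not overlap, and limma gave 0.25 ± 0.04 (adjusted p = 0.0037) with palbociclib and 0.32 ± 0.04 (adjusted p = 0.000808) with the combination.

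ZNF333 (ENSG00000160961, chr19:14689801-14733746, plus strand), a KRAB gene that stands alone between runs, was at 1.30 and 1.40 FPKM in DMSO, 1.47 and 1.41 under olaparib, 1.84 and 1.8 under palbociclib, and 2.01 and 2.03 under the combination. By limma the combination raised it by 0.36 ± 0.07 (adjusted p = 0.00349) and palbociclib by 0.26 ± 0.07 (adjusted p = 0.0166), the second call being lost without DMSO replicate 1 or either palbociclib library. Its exons overlap those of ADGRE2 and ADGRE3 on the other strand. ZNF846 rose by 0.42 ± 0.07 with the combination (limma adjusted p = 0.0026) and by 0.26 with palbociclib, where the call was lost without DMSO replicate 2 or either palbociclib library.

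ZNF837 showed wide libraries, with 3.59 and 3.85 FPKM in DMSO, 4.51 and 5.99 under olaparib, 4.94 and 5.45 under palbociclib and 4.56 and 5.63 under the combination. All treated libraries lay above DMSO, and the treated groups overlapped each other. By limma the difference was 0.40 ± 0.13 with olaparib (adjusted p = 0.0786), 0.39 ± 0.13 with palbociclib (adjusted p = 0.0375) and 0.36 ± 0.13 with the combination (adjusted p = 0.0436). The palbociclib call was lost without any 1 of the DMSO or palbociclib libraries. The combination call was lost without either DMSO library, either palbociclib library or combination replicate 2.

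ZNF428, among the 10 highest, was at 13.6 and 15.4 FPKM in DMSO, 14.5 and 16.2 under olaparib, 18.1 and 16.4 under palbociclib and 17.8 and 19.1 under the combination. By limma it was 0.33 ± 0.08 higher with the combination (adjusted p = 0.0109), a call lost without DMSO replicate 1 or combination replicate 2. With palbociclib it was 0.24 ± 0.08 higher (adjusted p = 0.044), lost without DMSO replicate 1 or either palbociclib library. Its exons overlap SRRM5 on the other strand. Other rises by limma with palbociclib were those of ZNF226 (0.27 ± 0.06) and ZNF136 (0.29 ± 0.09). The palbociclib call of ZNF226 was lost without DMSO replicate 1 or palbociclib replicate 2. That of ZNF136 was lost without any 1 of the DMSO or palbociclib libraries. With the combination ZNF226 rose by 0.28 ± 0.06 (limma adjusted p = 0.00701), a call that held in all 14 alternative settings.

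**Figure D4:**
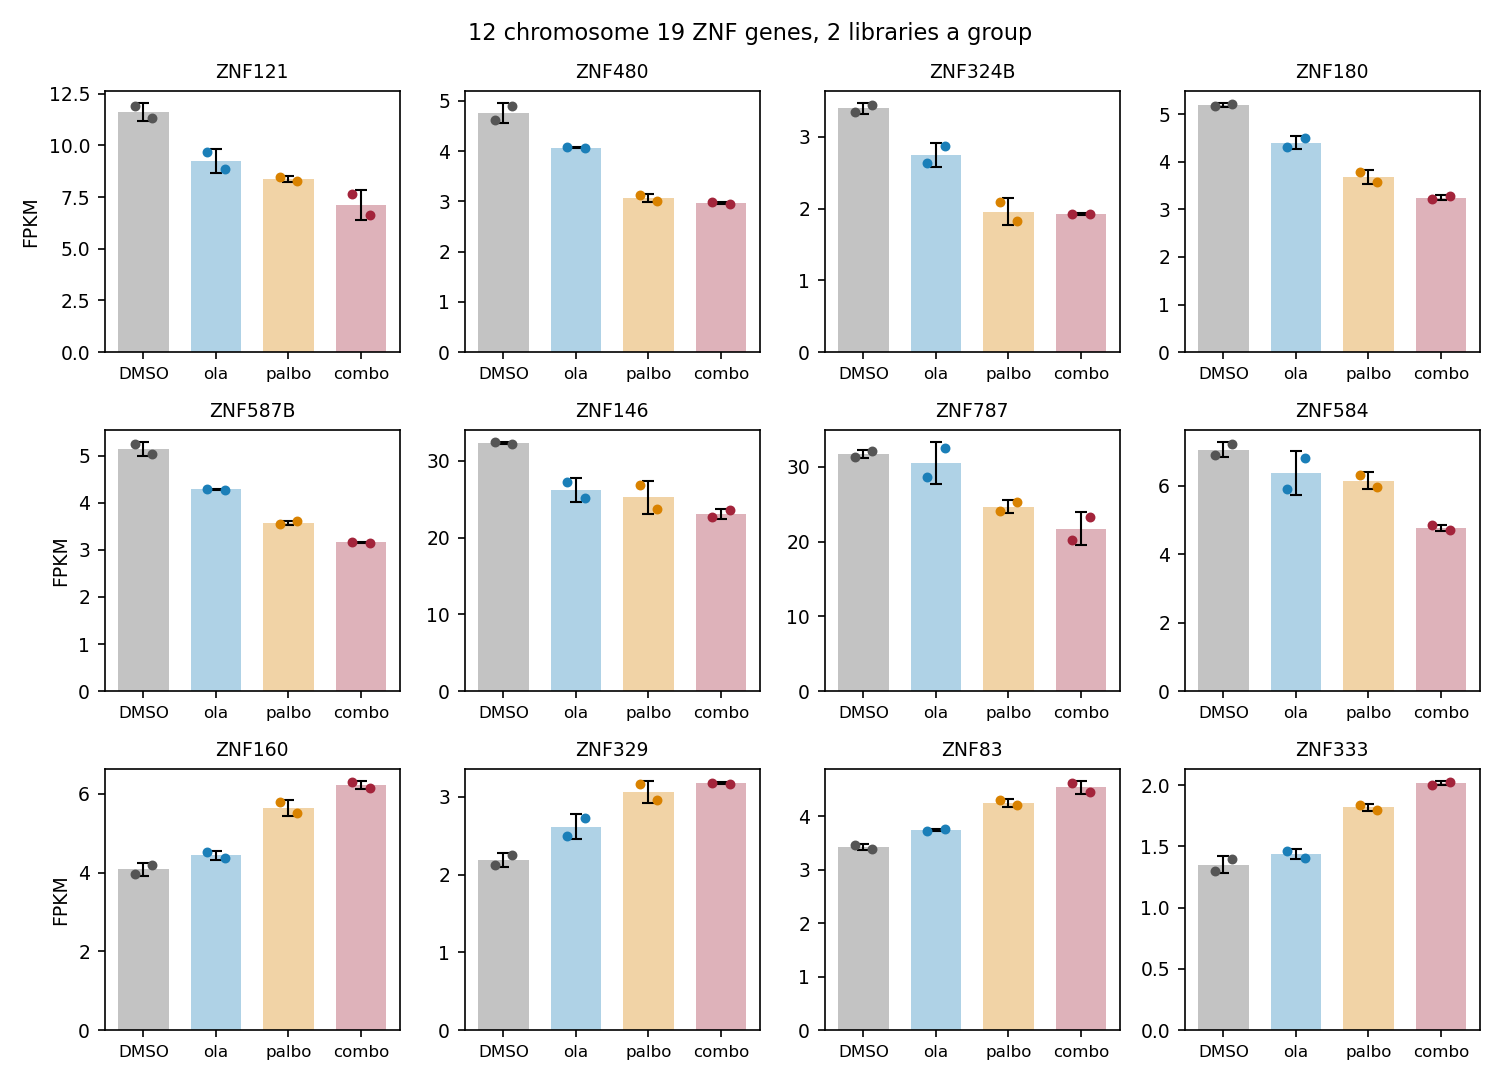
FPKM of 12 members in each library (points), with bars at the mean and error bars of SD (n = 2 libraries a group), for DMSO, olaparib (ola), palbociclib (palbo) and the combination (combo). The upper 8 genes are lower with the combination than with DMSO, such as ZNF121 from 11.9 and 11.3 to 7.63 and 6.61, and the lower 4 are higher, such as ZNF160 from 3.96 and 4.2 to 6.30 and 6.15.

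Against olaparib alone, the combination raised 14 members and lowered 16 (24%) by limma, and after TPM scaling the counts were 21 higher and 9 lower. Without olaparib replicate 2 the higher count was 4, without olaparib replicate 1 it was 9, and without combination replicate 1 or 2 it was 5 or 8. The lower count was 10 without olaparib replicate 1 and 10 without combination replicate 1. Of all tested genes 44.4% were called, 17% higher and 27.4% lower, and after TPM scaling 23.4% and 20%. Among the called members the lowest values were those of ZNF787 (−0.47 ± 0.08, limma adjusted p = 0.00344), ZNF566 (−0.38), ZNF324B (−0.36), ZNF480, ZNF584 and ZNF180 (each −0.35). ZNF160 gave the highest value of a called member (0.41 ± 0.05, limma adjusted p = 0.000714), followed among called members by ZNF333 (0.31), ZNF428 (0.25), ZNF419 (0.25), ZNF256 (0.24) and ZNF83 (0.22). ZNF419 lost its call under each of the 8 fits without a library. The call of ZNF333 was lost without olaparib replicate 2. That of ZNF428 was lost without olaparib replicate 1 or either combination library, and that of ZNF256 without either olaparib library or combination replicate 1.

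Between the combination and palbociclib alone, limma called 0 of the 125 members in either direction, and 0.0241% of all tested genes, 0.00804% higher and 0.0161% lower. At an unadjusted p under 0.05 there were 12 members, and voom on the recovered reads called 1, ZNF584, as lower (−0.36, adjusted p = 0.034), with 0.739% of all tested genes higher and 1.58% lower. In limma on FPKM, ZNF584 was at −0.31 (adjusted p = 0.135). A test of whether the olaparib effect with palbociclib differed from that without it called 0 members by limma and 0 by voom, with 3 and 9 members at an unadjusted p under 0.05, while 0.00804% of all tested genes were called. ZNF574 had the lowest limma adjusted p of the members in that test (0.443, difference −0.21). For the unadjusted counts in both comparisons no share of all tested genes was counted, so they say nothing particular to the members.

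Called members came from every class of linker number. With palbociclib 2 rose and 4 fell among the 27 tested members without a linker, 3 and 8 among the 30 with 1 to 4, and 7 and 11 among the 68 with 5 or more. The combination gave 1 and 7, 5 and 9, and 8 and 14 in the same order. Among the 19 tested members with a ZNF143 match in the promoter, 2 rose and 4 fell with palbociclib, and 0 rose and 5 fell with the combination. Among the 95 tested members whose promoter held no match, 10 rose and 16 fell with palbociclib, and 13 rose and 21 fell with the combination. Over all tested genes the shares were 18.7% higher and 31.4% lower with palbociclib and 21.5% and 35.3% with the combination. These directions are on the deposited scale and carry no test of the difference between classes. The classes were not counted after TPM scaling, where the order of the members' higher and lower counts turned.

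Members with named roles were described from lists of known functions. Of the repressors of retroelements, ZNF91, which silences SVA elements, stood at 2.02 FPKM, ZNF611 at 1.28 and ZNF765 at 1.02, and by limma none of the 3 was called with any treatment. ZNF93, which silences young LINE-1 elements, was at 0.00176 FPKM and ZNF534 at 0.0111, both under the limit for testing. ZNF274, which brings SETDB1 to the ends of other ZNF genes, was at 2.53 and 2.36 FPKM in DMSO and 1.83 and 1.87 under the combination, a difference of −0.27 ± 0.07 (limma adjusted p = 0.0135). That call was lost after TPM scaling and without DMSO replicate 1 or combination replicate 1. ZNF473, a factor of histone mRNA end processing, averaged 5.29 ± 0.287 FPKM (SD, n = 2) in DMSO and 4.57 ± 0.216 with olaparib, which did not pass (limma adjusted p = 0.0723). ZNF420 (1.25 FPKM), reported as a repressor of p53, did not pass in any comparison, and ZNF432 was at 0.0177 FPKM and not tested.

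Of the members often silenced by promoter methylation in tumours, ZNF331 (5.29 FPKM) and ZNF382 (1.30) were expressed and by limma called in none of the comparisons. ZNF154 was at 0.299 FPKM, ZNF671 at 0.241, ZNF582 at 0.184 and ZNF677 at 0.00104, all under the limit.

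The 102 members under 1 FPKM had a median of 0.206 FPKM and held 6% of the members' summed FPKM. Of these, 38 were under 0.1 FPKM, 27 were at 0 in at least 1 library, 30 had fewer than 10 reads in every library and 30 had at least 50 reads in every library. Their summed FPKM was 32.8 and 31.6 in DMSO, 34.8 and 31.9 under olaparib, 34.2 and 33.3 under palbociclib and 37.2 and 35.4 under the combination. The combination libraries were the highest, and the olaparib libraries spanned both palbociclib libraries. Without the expression limit limma called 0 of these members with olaparib (6 higher and 1 lower at an unadjusted p under 0.05), 1 higher with palbociclib (ZNF701) and 6 higher and 0 lower with the combination (ZNF345, ZNF491, ZNF528, ZNF544, ZNF582 and ZNF836). At an unadjusted p under 0.05 the combination gave 17 higher and 0 lower. Of all 19278 genes under 1 FPKM, the same fit called 0.171% higher and 0.207% lower for olaparib. Palbociclib gave 2.34% and 0.695%, the combination 3.51% and 0.986%. At an unadjusted p under 0.05 these shares were 3.08% and 2.17% with olaparib and 9.14% and 3.17% with the combination. ZNF582 was at 0.129 and 0.0708 FPKM in DMSO, 0.128 and 0.0837 under olaparib, 0.150 and 0.243 under palbociclib, and 0.368 and 0.298 under the combination. These values rest on 14 and 7 reads in DMSO and 27 and 26 under the combination (difference 0.28 ± 0.06, limma adjusted p = 0.0227), so a few reads decide them.

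The genes listed as KRAB corepressors, which include general chromatin and DNA methylation factors, all had mean levels of at least 1 FPKM. More of them were called lower than higher with palbociclib, on the deposited and the TPM scale. Of 26 genes in the list, 1 was higher and 2 lower with olaparib, 2 higher and 15 lower with palbociclib (median −0.16, all tested genes −0.05), and 2 higher and 19 lower with the combination (median −0.21, all tested genes −0.06), by limma. Over all tested genes the shares were 18.7% higher and 31.4% lower with palbociclib and 21.5% and 35.3% with the combination. After TPM scaling the counts were 4 higher and 10 lower with palbociclib and 7 higher and 12 lower with the combination, beside 27.6% and 21.6%, and 32.7% and 24.2%, of all tested genes. For olaparib they were 1 higher and 0 lower on that scale. TRIM28, the direct partner of the KRAB domain, was at 352.3 and 385.3 FPKM in DMSO, 348.4 and 390.1 under olaparib, 273.8 and 273.4 under palbociclib, and 229.0 and 240.9 under the combination. Its olaparib libraries enclosed the DMSO pair, and the other groups lay below. By limma TRIM28 was at −0.43 ± 0.07 with palbociclib (adjusted p = 0.00176) and −0.65 ± 0.07 with the combination (adjusted p = 0.000194). UHRF1, which guides maintenance DNA methylation, went from 62.7 ± 1.07 FPKM (SD, n = 2) in DMSO to 33.5 ± 0.773 with palbociclib, by limma −0.88 ± 0.04 (adjusted p = 3.12e-05), and was at −1.14 with the combination. The maintenance methyltransferase DNMT1 fell by 0.59 and 0.73 and the HP1 genes CBX1 and CBX3 both fell by 0.49 with palbociclib, while the other HP1 gene, CBX5, was at −0.13 and did not pass (limma adjusted p = 0.0805). SETDB1 was at 0.04 with palbociclib and did not pass (limma adjusted p = 0.505), while DNMT3A (0.34) and ATRX (0.25) rose. With olaparib HDAC2 and TRIM27 were both at −0.21 and DNMT3A at 0.21, each past the threshold by limma. The calls of HDAC2 and TRIM27 were lost after TPM scaling, and 0 corepressors were called for olaparib without either DMSO, olaparib or palbociclib library.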

How the data were processed

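The authors deposited FPKM values for 31721 Ensembl genes in 8 columns, 1 per library. The submitters' processing notes name, without role or order, CASAVA 1.8, STAR 2.5.1b and HTSeq 0.6.0 and, as builds, hg38 and GRCh38; the annotation release and strand use in counting are not given in the sources used here. Positions, biotypes and symbols came from GENCODE v29 (30945 genes found). With its exon lengths 28635 genes (90.3%), including 210 of the 227 members, gave whole reads within 0.01 reads in every library, and lengths were searched for the rest. Tested were 12443 genes averaging 1 FPKM or more, and 19278 were dropped. Values as log2(FPKM + 1) were fitted in limma 3.58.1 (R 4.3.3), with 1 mean per group, trended empirical Bayes moderation and 4 residual degrees of freedom, in two-sided tests with Benjamini-Hochberg adjustment in each of 6 comparisons. The fit was also run on simulated data in which few genes changed, in the palbociclib group only. Far more genes were called in the real data, so that run does not show how well the fit works here. Named members were the 6 highest and 6 lowest called values in a comparison whose libraries did not overlap, the 10 highest levels, the 3 on each side of the limit, and the role and corepressor lists; members beyond that rule were named after their values were seen. The members and lists were chosen with earlier results of these data known. The 14 alternatives were TPM, quantile normalisation, a pseudocount of 0.1, no filter, a replicate block, voom on recovered reads and 8 fits without a library.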

Additional observations from a re-analysis of the deposited data

How the results depend on the processing

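Counts of members called by limma moved with several settings. With TPM the higher and lower counts were 1 and 0 for olaparib, 23 and 15 for palbociclib, 29 and 14 for the combination against DMSO, and 21 and 9 for the combination against olaparib. Quantile normalisation gave 1 lower member for olaparib. Its higher and lower counts were 10 and 28 for palbociclib, 15 and 37 for the combination, and 11 and 21 for the combination against olaparib. Without the expression limit there were 0 lower for olaparib, 5 higher for palbociclib, and 7 higher and 8 lower for the combination against olaparib. Voom on recovered reads called 4 higher and 14 lower for olaparib and 1 lower for the combination against palbociclib. For palbociclib it called 17 higher and 28 lower, and for the combination 20 and 37. Lower calls thus outnumbered higher ones under quantile normalisation and voom, unlike under TPM. Same-numbered libraries did not deviate together (correlations of −0.0467 to 0.0342), so the numbers do not pair the samples; with the replicate block olaparib gave 1 higher and 5 lower, palbociclib 11 and 23, the combination 13 and 33. Leaving out 1 library at a time gave olaparib 0 to 1 higher and 0 to 4 lower, palbociclib 3 to 13 and 13 to 23, the combination 8 to 14 and 20 to 29, and the combination against olaparib 4 to 11 and 10 to 16. The palbociclib higher count fell most without palbociclib replicate 2 (3) and the lower count without DMSO replicate 2 (13), and the combination higher count without DMSO replicate 1 (8). A library left alone in its group is assumed to vary like the others. The causes were not tested. No called value of a named member changed sign in these settings. Tested members had at least 53 reads in every library (median of the lowest counts 268), and 30 of the 102 under 1 FPKM had at least 50.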

Other observations

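The exons of 126 of the 227 members overlapped an exon of another gene, 72 on the same strand and 74 on the other. In 35 members over 10% of the 100-base exon windows also occurred in other genes, as in ZNF709 (79.0%), ZNF320 (71.6%) and ZNF564 (63.1%). Among the 14 tested members of that kind, 0 rose and 3 fell with the combination, and among the 111 others 14 rose and 27 fell, by limma on the deposited scale. The 60 tested members without any exon overlap gave 11 higher and 13 lower calls with the combination, and the 65 with an overlap gave 3 higher and 17 lower. Over all tested genes 21.5% were called higher and 35.3% lower with the combination on that scale. After TPM scaling the order of the members' counts turned, to 29 higher and 14 lower, and these classes were not counted again there. The difference between these classes was not tested.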
